A study of Homo sapiens with 18 samples.

Results

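LINC transcripts are long intergenic non-coding RNAs that carry a number in place of a functional name. Of 2184 rows of the count table with such a symbol (LINC followed by digits only), 103 had a mean of at least 1 CPM over all 18 libraries (CPM, the count divided by the library total and scaled in the usual way) and are described here; they are 103 of 43236 rows in all. Among the other LINC rows, 1318 had no count in any library and 763 had counts but lay under the floor. The members were chosen by their measured mean CPM over both arms, so that their levels are given as a description. Just inside the floor were LINC00663, LINC01232 and LINC02830, with means of 1.05, 1.03 and 1.01 CPM. Just outside it were LINC01003, LINC01770 and LINC01535, with 0.990, 0.976 and 0.964 CPM.

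NCI-H1693 is an established line from a human lung cancer of the non-small cell type, and the labels describe it as deficient in SMARCA4. Cells were exposed to 50 nM PRT3789, a degrader selective for SMARCA2, or to DMSO, its solvent, for 6, 48 or 72 h. The 6 groups were PRT3789 at 6, 48 and 72 h and DMSO at 6, 48 and 72 h, with 3 libraries each. All groups share the one cell line, and the labels do not say whether the libraries of a group came from separate cultures, so that p-values measure the spread between these libraries, which may be technical.

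Long intergenic non-coding RNAs are, as a class, transcribed by RNA polymerase II outside protein-coding genes and are often spliced and polyadenylated like messenger RNA. Not all members lie apart from other genes. Of the 100 with a RefSeq position, 62 overlap another RefSeq gene on either strand, 13 of them a protein-coding one. Many are made at low levels and in few cell types, and some act on chromatin, on nearby genes or as partners of proteins and microRNAs in the cytoplasm. SWI/SNF complexes use either SMARCA2 or SMARCA4 as their ATPase; they move nucleosomes and keep enhancers and promoters open to transcription factors. Libraries were enriched for poly(A) RNA, and transcripts without a poly(A) tail were not captured by that step.

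Libraries held 23154484 to 31094797 counts, of which the members took between 0.0608% and 0.0772%. Between 99 and 103 of the members had at least 10 counts in a given library, and all 103 entered the tests among 16291 genes. Mean levels of the members ran from 1.01 to 62.9 CPM with a median of 3.02 CPM; 33 lay between 1 and 2 CPM, 30 between 2 and 5, 34 between 5 and 20 and 6 at 20 CPM or more. These levels are counts per library and are not divided by transcript length. Libraries of one group lay farther apart at 6 h: the median SD of log2 CPM over the members was 0.192 in PRT3789 and 0.248 in DMSO at 6 h, 0.135 in PRT3789 and 0.185 in DMSO at 48 h, and 0.134 in both at 72 h. As an identity check, the epithelial marker EPCAM was at 558 to 929 CPM, and the blood marker HBB was at 0 in every library. Among lung lineage markers, NKX2-1 was at 0.133 to 0.895 CPM, SFTPB was at most 0.265 CPM and SFTPC was at 0 in every library. SLC34A2, of the same list, was at 2.12 to 33.25 CPM and NAPSA at 0.0415 to 3.05 CPM. Among fibroblast markers, COL1A1 was at 11.7 to 24.7 CPM, and COL1A2, DCN and PDGFRB were at most 1.84, 1.68 and 1.395 CPM. SMARCA2 transcript, which a degrader of the protein need not change, had a log2 fold change (log2FC) of 0.04, -0.19 and -0.44 at 6, 48 and 72 h (adjusted p 0.98, 0.0591 and 5.61e-06, edgeR's quasi-likelihood test).

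The summed level of the members differed little between the arms, and that difference was not tested. It was 653 ± 40.7 CPM in PRT3789 and 693 ± 62.6 in DMSO at 6 h, 712 ± 0.557 in PRT3789 and 750 ± 18.2 in DMSO at 48 h, and 697 ± 13.8 in PRT3789 and 693 ± 7.61 in DMSO at 72 h (SD, n = 3 each). Single transcripts moved far more than the sum, in both directions. Since whole cultures were measured, fewer cells of a kind and less RNA per cell cannot be told apart in any of the values below.

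At 6 h, 2 members fell and none rose at an adjusted p under 0.05 (edgeR's quasi-likelihood test, Benjamini-Hochberg adjustment over all 16291 tested genes). That is 0% of the members higher and 1.94% lower, against 0.117% of all tested genes higher and 0.767% lower. At an unadjusted p under 0.05, 1 member was higher and 10 were lower. DESeq2 called 1 higher and 3 lower, limma-voom 0 higher and 2 lower, and a joint model of all 18 libraries 1 higher and 4 lower. The shares of all tested genes at these settings are not given here, so nothing particular to the members is read from these counts. The 2 called transcripts, LINC02967 and LINC00673, were also lower at both later times. Without DMSO 6 h replicate 2, 0 members were lower at 6 h, and without any other one of the 6 libraries 1 was.

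LINC02967 lies on chromosome 20 (20:24918564-24932985, plus strand, GRCh38.p14). At 6 h it had 3.26, 4.38 and 3.62 CPM in PRT3789 libraries, against 11.4, 11.8 and 13.5 CPM in DMSO libraries. At 48 h the values were 0.50, 0.17 and 0.40 CPM in PRT3789 libraries and 6.59, 7.15 and 9.07 CPM in DMSO libraries, and at 72 h they were 0.49, 0.51 and 0.73 CPM in PRT3789 libraries and 6.44, 6.54 and 5.05 CPM in DMSO libraries. The arms did not overlap at any time, and the highest late PRT3789 library lay below every PRT3789 library of 6 h. LINC02967 fell 3.25-fold at 6 h (log2FC -1.70 ± 0.15 SE, adjusted p = 0.00467) and, at 48 h, it was 20.7-fold lower (-4.37 ± 0.26, adjusted p = 1.73e-08). By 72 h the fall was 10.4-fold (-3.37 ± 0.21, adjusted p = 1.44e-11). The fold change at 48 h was the largest of any member, and the change of effect between 6 and 48 h was itself called (-2.67 ± 0.33, adjusted p = 0.000174). Without DMSO 6 h replicate 2 the 6 h value was -1.72 with an adjusted p of 0.051.

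LINC00673, reported in lung and pancreatic cancer, lies on chromosome 17 (17:72403322-72592804, minus strand). It had 4.15, 3.22 and 3.97 CPM in PRT3789 libraries of 6 h, against 7.26, 6.86 and 8.37 CPM in the DMSO libraries. Later values were 3.13, 2.20 and 2.42 CPM in PRT3789 and 6.97, 7.15 and 7.49 CPM in DMSO at 48 h, and 2.46, 2.86 and 1.77 CPM in PRT3789 and 5.56, 6.69 and 5.51 CPM in DMSO at 72 h. All 9 PRT3789 libraries lay below all 9 DMSO libraries. The log2FC was -0.99 ± 0.15 at 6 h (adjusted p = 0.0366), -1.47 ± 0.15 at 48 h (adjusted p = 3.9e-06) and -1.32 ± 0.17 at 72 h (adjusted p = 9.97e-07). Unlike LINC02967 it showed no called change of effect between 6 and 48 h (-0.49, adjusted p = 0.16). Leaving out any one of the 6 libraries of 6 h ended its call at that time, with adjusted p up to 0.151, while log2FC stayed between -0.88 and -1.06.

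The promoter windows of some transcripts that fell are shown because the changes are measured at the RNA and the windows are where that RNA starts. LINC02331, LINC01260, LINC02522 and LINC01275, also among the larger falls, had no promoter window to show. Each runs from 250 bases before to 50 bases after the RefSeq start on GRCh38.p14, in the direction of transcription. Capitals mark letters of 5 motifs searched on both strands: AP-1 (TGANTCA), TEAD (CATTCC), the E-box (CACGTG), NF-Y (CCAAT) and the TATA box (TATAAA). AP-1 and TEAD are factors bound at many enhancers of epithelial cells.
LINC02967, chr20:24918314-24918613, plus strand: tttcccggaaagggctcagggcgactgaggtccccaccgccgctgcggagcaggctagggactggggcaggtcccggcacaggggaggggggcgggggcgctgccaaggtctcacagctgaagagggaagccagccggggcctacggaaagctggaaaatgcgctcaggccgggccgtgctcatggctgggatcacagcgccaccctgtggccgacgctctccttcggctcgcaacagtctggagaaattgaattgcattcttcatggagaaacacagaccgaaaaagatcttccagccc
LINC00673, chr17:72592755-72593054, minus strand: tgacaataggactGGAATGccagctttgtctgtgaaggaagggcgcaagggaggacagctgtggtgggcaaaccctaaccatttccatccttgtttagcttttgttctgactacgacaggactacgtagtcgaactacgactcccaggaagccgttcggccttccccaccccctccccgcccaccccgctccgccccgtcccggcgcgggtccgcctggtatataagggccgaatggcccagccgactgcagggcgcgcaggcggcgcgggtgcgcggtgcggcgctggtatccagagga
LINC01116, chr2:176637560-176637859, minus strand: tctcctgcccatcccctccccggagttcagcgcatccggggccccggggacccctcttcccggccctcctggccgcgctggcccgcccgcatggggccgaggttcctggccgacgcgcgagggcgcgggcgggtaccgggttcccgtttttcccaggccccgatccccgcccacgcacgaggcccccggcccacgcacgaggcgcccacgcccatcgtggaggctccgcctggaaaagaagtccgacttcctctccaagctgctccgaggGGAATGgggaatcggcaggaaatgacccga
LINC02709, chr11:9759484-9759783, minus strand: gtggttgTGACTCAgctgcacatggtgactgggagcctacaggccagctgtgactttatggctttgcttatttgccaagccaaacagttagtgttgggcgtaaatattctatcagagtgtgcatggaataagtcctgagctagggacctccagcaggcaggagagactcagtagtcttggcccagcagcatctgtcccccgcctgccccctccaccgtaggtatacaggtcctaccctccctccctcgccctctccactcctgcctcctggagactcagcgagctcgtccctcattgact

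LINC02967 held none of the 5 motifs. LINC00673 held a TEAD match at position -237 relative to the start, LINC01116 a TEAD match at position 21, and LINC02709 an AP-1 match at position -243. A match is a run of letters and not a measured binding site.

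At 48 h, 20 members rose and 29 fell, which is 19.4% and 28.2% of them, against 23.8% of all tested genes higher and 23.7% lower. At 72 h, 28 rose and 25 fell, which is 27.2% and 24.3% of the members, against 28.4% of all tested genes higher and 28.2% lower. The share of members called was thus near that of all genes at both times and is not a result about the members. Their median log2FC was also near that of all genes, at -0.001 beside 0.015 at 48 h and -0.004 beside 0.011 at 72 h. The median size of the change, without its sign, was 0.37 in the members beside 0.32 in all tested genes at 48 h, and 0.44 beside 0.32 at 72 h. Among the 788 other RefSeq long non-coding RNAs at 1 CPM or more, 23.4% were higher and 14.6% lower at 48 h, and 32.9% higher and 15.5% lower at 72 h. Among the 63 members of 1 to 5 CPM, 17.5% were higher and 28.6% lower at 48 h, beside 21.6% and 19.8% of all tested genes of that level; at 72 h the shares were 23.8% and 25.4%, beside 25.8% and 23.6%. Of the 40 members at 5 CPM or more, 22.5% were higher and 27.5% lower at 48 h, beside 27.5% and 27% of all tested genes of that level. At 72 h these shares were 32.5% and 22.5%, beside 32.6% and 32.5%. The difference between these shares was not tested.

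**Figure D1:**
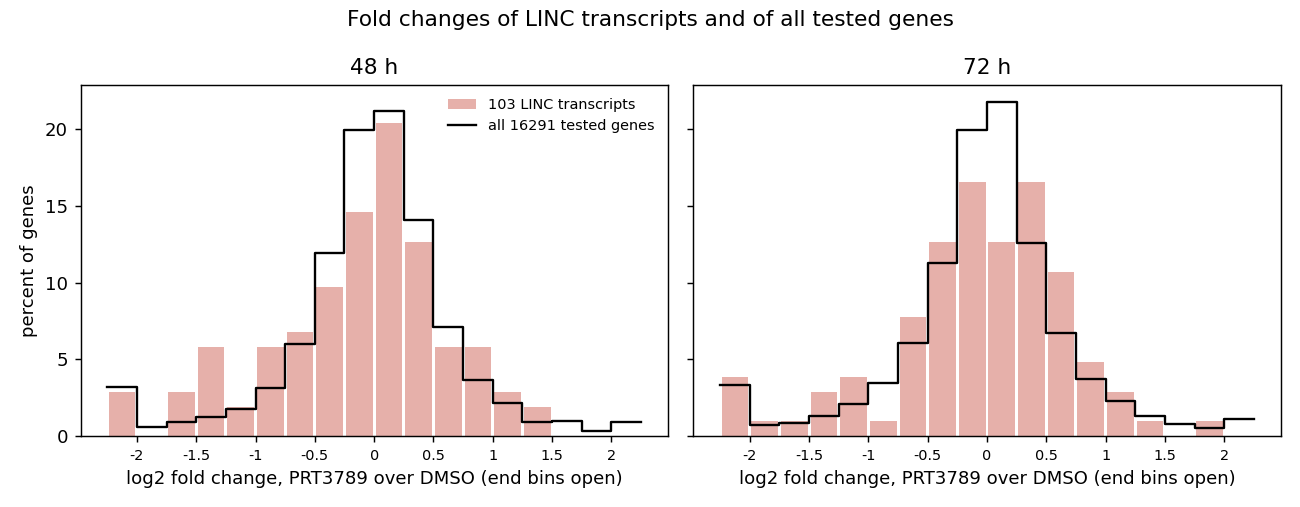
Share of genes (percent, vertical) in bins of log2 fold change, PRT3789 over DMSO (horizontal), at 48 h and 72 h. Bars are the 103 LINC transcripts and the black line is all 16291 tested genes; both centre near 0, and both hold more genes under -2 than over 2 (2.91% and 0% of members and 3.19% and 0.915% of all tested genes at 48 h).

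The floor was set on the mean over all 18 libraries, and its effect on these counts was not tested. The members are split here by their levels at 48 and 72 h alone. Over the 48 and 72 h libraries, 11 members reached a mean of 1 CPM in DMSO but not in PRT3789, among them LINC02967, LINC02331, LINC01260, LINC02522 and LINC02830. Another 4 reached it in PRT3789 but not in DMSO, namely LINC01816, LINC02100, LINC00663 and LINC01232. Among the 88 that reached it in both arms, 17 were higher and 19 lower at 48 h, and 25 were higher and 19 lower at 72 h. The split uses the same late libraries as the calls, so that these counts do not correct for the floor. It also does not tell which arm took a member over the floor. LINC02967 and LINC01260, for example, had more than 1 CPM in every PRT3789 library of 6 h.

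Most late calls were shared between the late times, which have no libraries in common. Both times called 18 members higher, which is 90% of the 20 at 48 h and 64.3% of the 28 at 72 h. Both called 20 lower, which is 69% of the 29 at 48 h and 80% of the 25 at 72 h. The same overlap over all tested genes is not given here, so these shares are not a result about the members. No member was higher at one time and lower at the other, 64 were called at 48 or 72 h, and 39 were called at neither, among them LINC00665 and LINC00857. The change of effect between 48 and 72 h was called for 0 members in either direction, beside 0.706% of all tested genes higher and 1.1% lower. At an unadjusted p under 0.05 that change was higher for 13 members and lower for 3, and without DMSO 48 h replicate 1 the adjusted test called 5 higher and 1 lower. DESeq2 called 1 higher and 0 lower, and limma-voom 0 and 0. For these settings too the shares of all tested genes are not given, and nothing particular to the members is read from the counts.

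**Figure D2:**
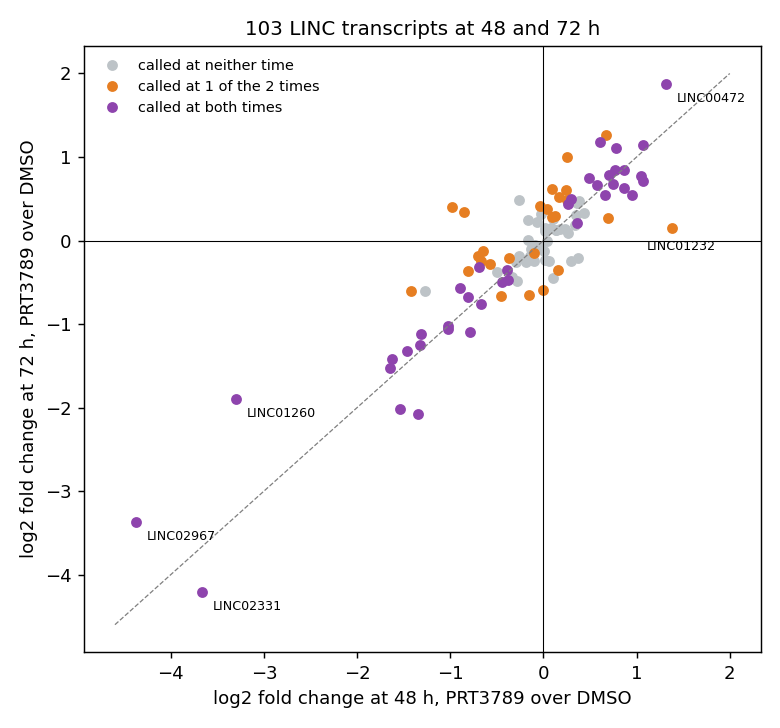
Log2 fold change at 72 h (vertical) against that at 48 h (horizontal), PRT3789 over DMSO, for each of the 103 LINC transcripts; the dashed line marks equal values. The 38 transcripts called at both times lie at the lower left or upper right of the origin, LINC02331 and LINC02967 lie lowest at 72 h (-4.21 and -3.37), and LINC01260 stands far to the left at 48 h (-3.30).

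Besides LINC02967, the steepest falls at 48 h were those of LINC02331 and LINC01260; at 72 h LINC02522 and LINC01116 fell further than LINC01260. LINC02331 lies on chromosome 14 (14:53684997-53850826). At 48 h it had 0.50, 0.29 and 0.33 CPM in PRT3789 libraries, against 3.80, 5.17 and 5.51 CPM in DMSO libraries. At 72 h it had 0.31, 0.17 and 0.10 CPM in PRT3789 libraries, a sum of 17 counts, against 3.73, 3.62 and 3.75 CPM in DMSO libraries. The arms were far apart at both times, with a 12.7-fold fall at 48 h (log2FC -3.67 ± 0.26, adjusted p = 9.1e-08). By 72 h the fall was 18.6-fold (-4.21 ± 0.29, adjusted p = 1.16e-10). At 6 h the values were 2.02, 1.38 and 1.36 CPM in PRT3789 libraries and 2.03, 2.47 and 3.69 CPM in DMSO libraries, nearly touching, and the difference was not called (-0.78 ± 0.29, adjusted p = 0.477). The gain in effect from 6 to 48 h was -2.90 ± 0.41 (adjusted p = 0.000502).

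LINC01260 lies on chromosome 20 (20:44656451-44671739). It had 0.14, 0.17 and 0.36 CPM in PRT3789 libraries of 48 h and 2.20, 2.43 and 2.24 CPM in DMSO libraries, a 9.83-fold fall (log2FC -3.30 ± 0.34, adjusted p = 3.16e-06). At 72 h it had 0.35, 0.48 and 0.56 CPM in PRT3789 libraries and 1.83, 1.46 and 1.89 CPM in DMSO libraries, a 3.74-fold fall (-1.90 ± 0.31, adjusted p = 1.99e-05). Its DMSO level was also lower at the later time, with 2.29 ± 0.12 CPM at 48 h against 7.59 ± 0.99 CPM at 6 h (SD, n = 3 each). That log2FC was -1.73 ± 0.18 (adjusted p = 4.36e-05, edgeR's quasi-likelihood test). Of its longest GENCODE transcript, 85.6% is at least 95% identical to other GENCODE entries, the closest of which has no gene symbol. Reads were counted on the NCBI annotation, and whether that entry is in it was not checked. RefSeq lists no gene overlapping LINC01260. Whether the counting split its reads is thus not known.

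Several other members fell at both late times. LINC01116, reported to promote growth in several cancers, lies on chromosome 2 (2:176611437-176637609). It had 1.00, 1.33 and 1.23 CPM in PRT3789 libraries of 48 h and 3.65, 2.90 and 3.78 CPM in DMSO libraries, and at 72 h 1.04, 0.78 and 0.66 CPM in PRT3789 libraries and 4.15, 3.06 and 2.89 CPM in DMSO libraries. The arms lay apart at both times (log2FC -1.54 ± 0.21 and -2.02 ± 0.24, adjusted p 4.6e-05 and 3.08e-07). LINC02709 (11:9754770-9759533) averaged 1.46 ± 0.16 CPM in PRT3789 and 4.52 ± 0.51 in DMSO at 48 h, with log2FC -1.63 there and -1.42 at 72 h. It overlaps SBF2-AS1. LINC01275 (-1.65 and -1.53), LINC02475 (-1.33 and -1.25), LINC00963 (-1.31 and -1.12) and LINC02522 (-1.35 and -2.08) were lower at both late times too. LINC02522 had already been at 0.45, 0.92 and 0.97 CPM in PRT3789 libraries of 6 h, against 1.74, 2.18 and 2.27 CPM in DMSO libraries, without overlap but not called (-1.40 ± 0.31, adjusted p = 0.138). LINC02830, just inside the floor, fell at 48 h (-1.42, adjusted p = 0.00548) and was not called at 72 h (-0.61, adjusted p = 0.213).

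LINC00674 had the highest mean CPM of the members and lies on chromosome 17 (17:68101555-68135929). In PRT3789 libraries it had 50.5, 50.6 and 54.4 CPM at 48 h and 47.6, 49.0 and 50.9 CPM at 72 h, against 90.4, 77.0 and 80.1 CPM and 80.8, 83.1 and 86.8 CPM in DMSO libraries of these times. Every late PRT3789 library lay under every late DMSO library (log2FC -0.67 ± 0.08 and -0.76 ± 0.05, adjusted p 9.45e-06 and 1.2e-10), while the 6 h libraries overlapped (-0.04 ± 0.15). The other members of 20 CPM or more that the level rule named moved less, apart from LINC00205. LINC00938 averaged 39.2 ± 2.3 CPM in PRT3789 and 43.6 ± 1.2 in DMSO at 72 h (log2FC -0.15, adjusted p = 0.0351), a call that 6 alternatives ended. LINC00665 averaged 26.6 ± 2.2 CPM in PRT3789 and 27.8 ± 2.2 in DMSO at 72 h and was called at no time. Of its longest transcript, 82.2% is like other genes, the closest by aligned length being LINC01535. LINC00857 had log2FC of -0.25, -0.17 and 0.01 at the 3 times, none of them called.

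**Figure D3:**
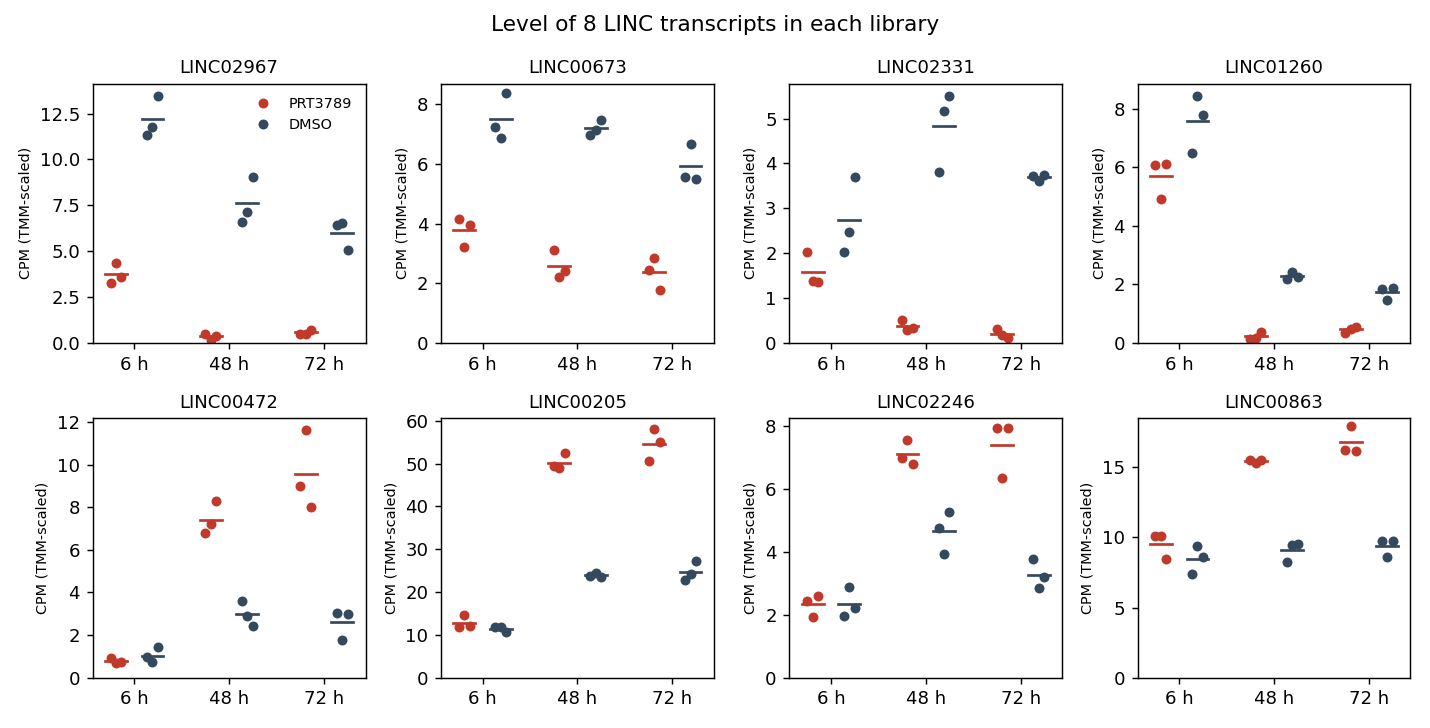
Level in CPM (vertical, relative to the TMM-scaled library total) of 8 LINC transcripts in each library at 6, 48 and 72 h, with PRT3789 in red and DMSO in dark blue; points are libraries and lines the means of 3. LINC02967 and LINC00673 are apart at every time, and LINC00205 climbs in both arms but farther in PRT3789.

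Among the rises, LINC00472 and LINC00205 had at least doubled levels at both late times. LINC00472, reported as a tumour suppressor in breast cancer, lies on chromosome 6 (6:71407864-71420745). At 6 h it had 0.93, 0.71 and 0.73 CPM in PRT3789 libraries and 0.95, 0.75 and 1.42 CPM in DMSO libraries, which overlapped (log2FC -0.39, adjusted p = 0.903). It had 6.79, 7.21 and 8.28 CPM in PRT3789 libraries of 48 h and 3.61, 2.90 and 2.42 CPM in DMSO libraries, and at 72 h 8.98, 11.6 and 8.03 CPM in PRT3789 libraries and 3.03, 1.79 and 2.99 CPM in DMSO libraries. The late arms did not overlap. The rise was 2.5-fold at 48 h (1.32 ± 0.16, adjusted p = 1.68e-05), and by 72 h it was 3.65-fold (1.87 ± 0.19, adjusted p = 1.11e-06). DMSO itself was at 2.98 ± 0.60 CPM at 48 h, against 1.04 ± 0.34 at 6 h (SD, n = 3 each; 1.52 ± 0.23, adjusted p = 0.00054).

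LINC00205 lies on chromosome 21 (21:45288052-45297354). It had 11.7, 14.7 and 12.01 CPM in PRT3789 libraries of 6 h and 11.7, 11.8 and 10.6 CPM in DMSO libraries, which overlapped. At 48 h it had 49.4, 48.9 and 52.4 CPM in PRT3789 libraries and 23.8, 24.4 and 23.5 CPM in DMSO libraries, and at 72 h 50.6, 58.2 and 55.0 CPM in PRT3789 libraries and 22.7, 24.1 and 27.2 CPM in DMSO libraries. The late arms were apart by about the same amount at both times (log2FC 1.07 ± 0.07 and 1.14 ± 0.07, adjusted p 6.3e-08 and 3.11e-11). In DMSO alone the level was also 1.07 ± 0.10 higher on the log2 scale at 48 h than at 6 h (adjusted p = 1.26e-05).

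The promoter windows of these risen transcripts, drawn and marked in the same way, are given for comparison with those of the fallen ones.
LINC00472, chr6:71420696-71420995, minus strand: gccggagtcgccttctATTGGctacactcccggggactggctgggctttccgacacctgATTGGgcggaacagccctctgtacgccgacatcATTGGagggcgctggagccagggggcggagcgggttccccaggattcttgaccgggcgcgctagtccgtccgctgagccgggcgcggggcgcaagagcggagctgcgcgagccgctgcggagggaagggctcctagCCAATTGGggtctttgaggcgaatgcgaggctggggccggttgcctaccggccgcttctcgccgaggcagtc
LINC00205, chr21:45287802-45288101, plus strand: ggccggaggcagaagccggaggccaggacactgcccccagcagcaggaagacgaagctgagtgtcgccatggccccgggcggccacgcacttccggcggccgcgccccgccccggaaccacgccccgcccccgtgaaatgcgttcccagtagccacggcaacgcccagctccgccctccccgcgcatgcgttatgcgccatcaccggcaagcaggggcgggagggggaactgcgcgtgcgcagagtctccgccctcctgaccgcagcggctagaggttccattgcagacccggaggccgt

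LINC00472 held 5 NF-Y matches, of which the last 2 overlap each other, and LINC00205 held none of the 5 motifs. Among risen transcripts whose windows are not shown, LINC00863 held an E-box and an NF-Y match, and LINC02983 a TEAD and an NF-Y match. NF-Y binds CCAAT boxes near the start of many genes.

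The remaining rises were mostly under 2-fold. LINC02246 averaged 7.10 ± 0.39 CPM in PRT3789 and 4.65 ± 0.67 in DMSO at 48 h, and 7.40 ± 0.93 in PRT3789 and 3.27 ± 0.47 in DMSO at 72 h (SD, n = 3 each; log2FC 0.61 and 1.18). LINC00863 (0.77 and 0.84), LINC01569 (0.86 and 0.84), LINC01521 (0.86 and 0.63) and LINC00638 (1.07 and 0.71) rose at both late times. Of the longest LINC00863 transcript, 98.3% is like other genes, the closest by aligned length being NUTM2E, so its reads could have been split. LINC00663 was 0.78 higher at 48 h, a call that 8 alternatives ended, and 1.11 higher at 72 h (adjusted p 0.032 and 0.000792). LINC02100 (1.26, adjusted p = 0.000602) and LINC02983 (1.00, adjusted p = 0.00415) were called at 72 h and not at 48 h. LINC01232 was the reverse: it had 1.81, 1.20 and 2.15 CPM in PRT3789 libraries of 48 h and 0.41, 0.73 and 0.84 CPM in DMSO libraries (1.38 ± 0.32, adjusted p = 0.00331), and at 72 h 1.32, 0.78 and 1.15 CPM in PRT3789 libraries and 1.16, 0.93 and 0.83 CPM in DMSO libraries (0.15, adjusted p = 0.7). Its 48 h arms lay apart and its 72 h arms overlapped, but the change between 48 and 72 h was not called (-1.23 ± 0.44, adjusted p = 0.143).

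**Figure D4:**
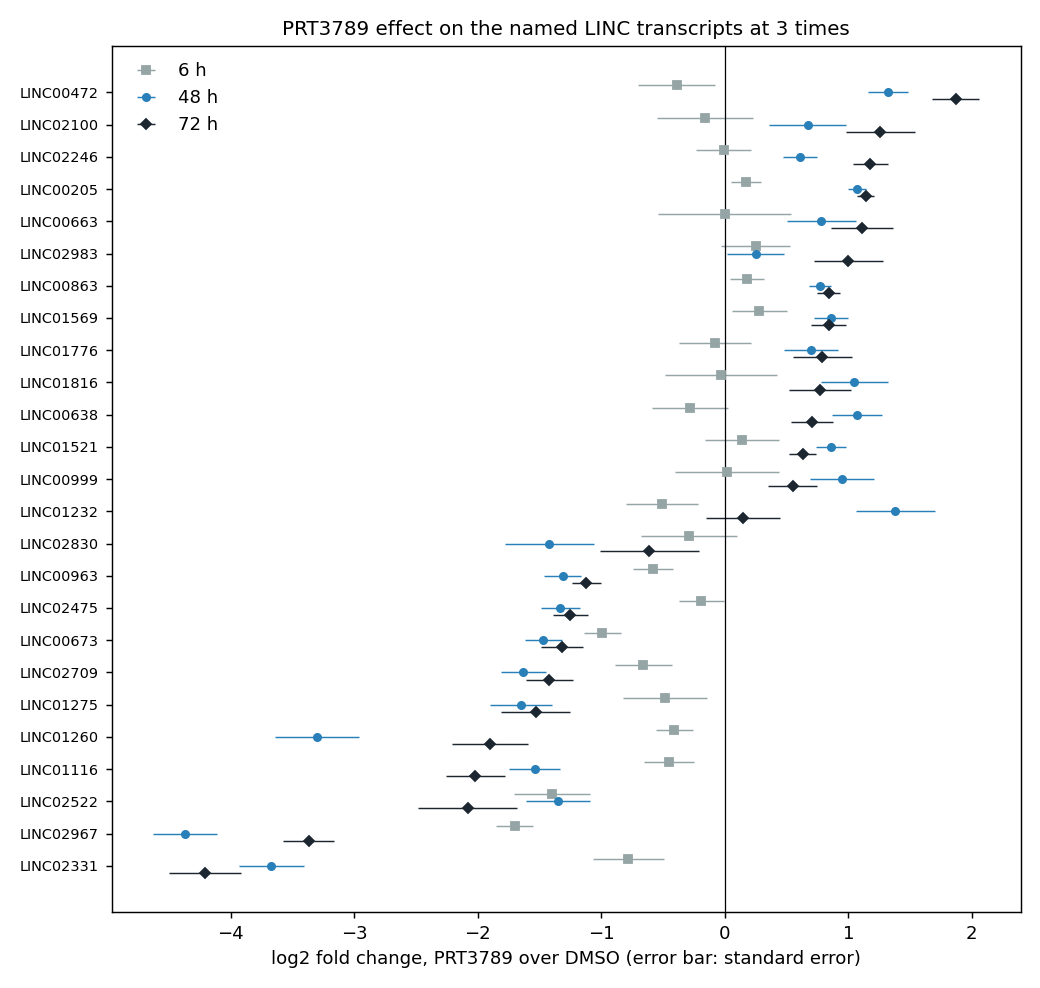
Log2 fold change, PRT3789 over DMSO (horizontal, bar: SE), of the LINC transcripts named for a treatment effect, at 6 h (grey squares), 48 h (blue circles) and 72 h (black diamonds). Most 6 h values lie near 0, while the late values run from -4.37 to 1.87 and differ between the late times for some, as for LINC01260 (-3.30 at 48 h and -1.90 at 72 h) and LINC01232 (1.38 and 0.15).

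The change of effect between 6 and 48 h was called higher for 6 members and lower for 9, which is 5.83% and 8.74% of them beside 5.87% and 8.02% of all tested genes. The upward ones with the largest values were LINC01232 (1.88), LINC00472 (1.71), LINC00638 (1.35), LINC00205 (0.90) and LINC00886 (0.82). The downward ones were led by LINC02331, LINC01260 and LINC02967, then LINC01106 (-1.48) and LINC02475 (-1.15). The calls of LINC00638, LINC00886 and LINC01106 were each lost under at least 1 alternative. Without PRT3789 48 h replicate 1 the counts were 3 higher and 5 lower, and 5 were also lower without DMSO 6 h replicate 2, PRT3789 6 h replicate 1 or DMSO 48 h replicate 1.

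Levels in DMSO also differed between the times, where time and harvest cannot be told apart. More of the libraries behind the floor are late than early, and its effect on the counts below was not tested. At 48 h against 6 h, 22 members were higher and 5 lower, which is 21.4% and 4.85% of them beside 14.1% and 15.8% of all tested genes. At 72 h against 48 h, 4 were higher and 16 lower, which is 3.88% and 15.5% beside 10.6% and 8.24%; the joint model of all libraries called 1 higher and 2 lower. Median log2FC was 0.137 in the members and -0.001 in all tested genes for the first comparison, and -0.14 and 0.007 for the second. Without DMSO 48 h replicate 1 the second comparison gave 7 higher and 26 lower, and without any other one of its 6 libraries 1 or 2 were higher. It gave 8 lower without DMSO 48 h replicate 3, and 9 and 7 lower without DMSO 72 h replicates 2 and 3. The first gave 11 lower without DMSO 6 h replicate 1 and 3 lower without DMSO 48 h replicate 1. With library totals in place of TMM, which shifts the median of all genes by 0.109 in the first comparison, 29 members were higher and 5 lower. Ribosomal protein transcripts took 8.48% ± 2.33 of counts in DMSO at 6 h, 6.06% ± 0.743 at 48 h and 4.61% ± 0.339 at 72 h, and their part in these shifts was not tested. LINC02709 was 1.58 ± 0.18 higher in DMSO at 48 h than at 6 h, and LINC00857 was 0.73 lower (adjusted p 6.56e-05 and 0.000189).

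Of 38 LINC genes listed for a reported role, 33 were in the table, 15 were tested and 11 were members. The list is not complete. It leaves out LINC00472, given above with a reported role, which rose at 48 and 72 h (log2FC 1.32 and 1.87). The counts below thus hold for the listed genes and not for all LINC genes with a reported role. Over the 15 tested, 0 were higher and 1 lower at 6 h, 1 higher and 7 lower at 48 h, and 2 higher and 6 lower at 72 h. At 6 h, 0 of the 11 rose and 1 fell, LINC00673. At 48 h, 0 rose and 6 fell, beside 23.8% of all tested genes higher and 23.7% lower, with a median log2FC of -0.37 beside 0.015 in all tested genes. These were LINC00673, LINC01116, LINC00963, LINC00662 (-0.67), LINC00467 (-0.39) and LINC01128 (-0.37). At 72 h, 2 rose and 4 fell, beside 28.4% and 28.2% of all tested genes, with a median of -0.21. The rises were LINC00847 (0.29, adjusted p = 0.00797) and LINC00858 (0.62, adjusted p = 0.0222), and the falls LINC00673, LINC01116, LINC00963 and LINC00467 (-0.35, adjusted p = 0.00293). LINC00963, reported in prostate cancer, had 3.64, 3.71 and 4.24 CPM in PRT3789 libraries of 72 h and 8.27, 8.63 and 8.37 CPM in DMSO libraries, clearly apart. Outside LINC00673 at 6 h, the calls of LINC00467 at both late times, LINC01128 at 48 h, and LINC00847 and LINC00858 at 72 h were each lost under at least 1 alternative, for LINC00467 at 72 h the joint model alone (adjusted p = 0.203). LINC01138 and LINC00665 were called at no time.

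Genes next to the members are of interest because some intergenic RNAs share a promoter region or an enhancer domain with a neighbour. Of the 29 members lower at 48 h, 25 had a nearest RefSeq protein-coding gene that was tested; 7 of these neighbours were lower, 6 higher and 12 not called. At 72 h, 22 of the 25 lower members had a tested neighbour, of which 8 were lower, 6 higher and 8 not called. For the higher members, 5 of 13 neighbours were higher and 2 lower at 48 h, and 7 of 19 were higher and 3 lower at 72 h. Over all tested genes 23.8% were higher and 23.7% lower at 48 h, and 28.4% and 28.2% at 72 h. The counts are a description with no test over pairs, and nothing particular to the neighbours is read from them.

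LINC02331 and BMP4, a secreted growth factor gene 98910 bp away, were both lower late. BMP4 averaged 67.7 CPM in PRT3789 and 170 in DMSO at 48 h, and 52.6 in PRT3789 and 186 in DMSO at 72 h (log2FC -1.32 ± 0.06 and -1.82 ± 0.05, adjusted p 2.18e-09 and 8.24e-17). LINC00205 starts 157 bp from POFUT2, an O-fucosyltransferase gene, which rose less than its neighbour did (0.43 and 0.57). LINC00863 and NUTM2D, 442 bp apart, both rose (0.77 and 0.86 at 48 h). The longest LINC00863 transcript is 98.3% like other genes, the closest by aligned length being NUTM2E, so its reads could have been shared with similar genes. LINC00963 overlaps the protein-coding entry LOC124900275, which fell by 1.60 and 1.41 on the log2 scale, and reads of the overlap could be shared. Opposite directions occurred as well. SWAP70, 1777 bp from LINC02709, rose by 0.70 and 0.77 on the log2 scale, and the zinc transporter gene SLC39A11, 53145 bp from LINC00673, by 0.41 and 0.70. PATZ1, a zinc finger gene 413 bp from the risen LINC01521, fell by 0.31 and 0.36 on the log2 scale. OGFRL1, 98805 bp from LINC00472, was not called (-0.16 and -0.07), and CST7, 16284 bp from LINC02967, had too few counts to be tested.

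**Figure D5:**
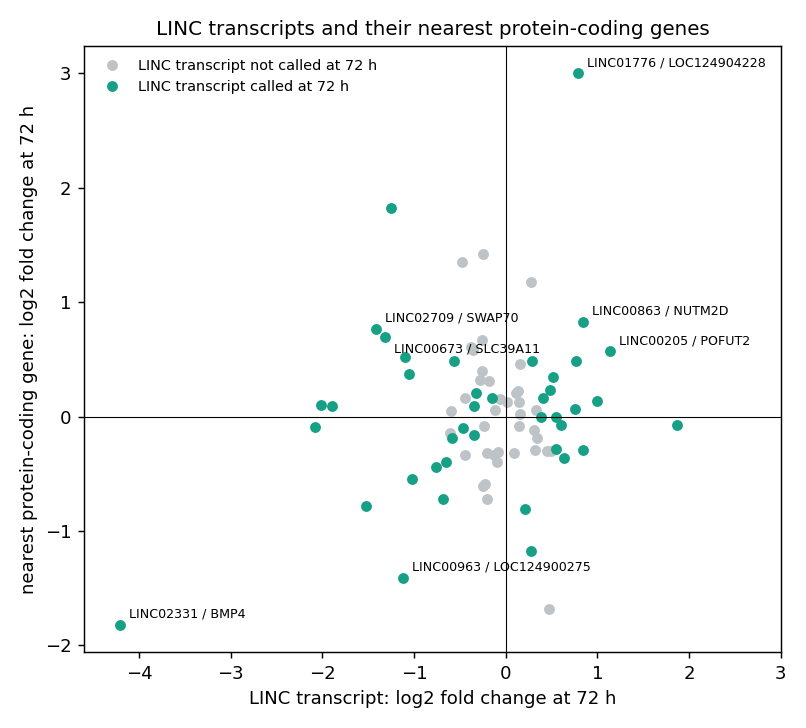
Log2 fold change at 72 h, PRT3789 over DMSO, of the nearest RefSeq protein-coding gene (vertical) against that of the LINC transcript (horizontal), green where the transcript was called. Points fall on all sides of the origin; LINC02331 with BMP4 is at the lower left, and LINC02709 with SWAP70 is at the upper left.

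RefSeq gave promoter windows for 70 of the 103 members, 87 windows in all. AP-1 letters stood in 11.5% of these windows and in 7.71% of all 35116 human promoter windows of the same length. They were in 5 of the 16 windows (31.2%) of members lower at both late times, those of LINC00963, LINC01002, LINC02542, LINC02709 and LINC02901, and in 1 of the 13 windows (7.69%) of members higher at both, that of LINC00339. TEAD letters stood in 12.5% of the windows of lower members, 30.8% of those of higher members and 14% of all windows. The NF-Y share was 25% for lower members, 46.2% for higher members and 34.6% over all windows. The windows of each set are few, some belong to the same gene, and the shares are a description with no test.

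Some epithelial markers moved with the same comparison. The sum of 5 (KRT8, KRT18, KRT19, EPCAM and CDH1) was 4657 to 4904 CPM in PRT3789 and 10210 to 11000 CPM in DMSO at 48 h, and 4114 to 4328 CPM in PRT3789 and 9143 to 9896 CPM in DMSO at 72 h. Most of that difference lay in the keratins KRT8 and KRT18, whose means at 72 h were 1810 and 1324 CPM in PRT3789 and 4632 and 3575 CPM in DMSO. CDH1 was at 167 CPM in PRT3789 and 332 CPM in DMSO at 72 h, EPCAM at 567 CPM in PRT3789 and 594 CPM in DMSO, and KRT19 at 333 CPM in PRT3789 and 318 CPM in DMSO. Of 3 endothelial markers, CDH5 was at 0.0257 CPM in PRT3789 and 2.30 CPM in DMSO at 48 h, while PECAM1 and VWF were at most 0.207 and 0.332 CPM in any library. The part of these differences in the changes of the LINC transcripts was not tested.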

How the data were processed

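Per the submitters' processing notes and design text, the authors ran nf-core/rnaseq 3.17.0 on 150 bp read pairs from stranded poly(A) libraries: adapters were trimmed with Trim Galore, reads aligned with STAR to GRCh38.p14 (NCBI annotation release 110) and genes quantified with RSEM. The deposited table holds RSEM expected counts, already whole numbers, for 43236 symbols and 18 libraries of 23154484 to 31094797 counts. No molecular identifiers were used, and depth therefore bounds only the error of counting. RSEM shares reads among similar genes; 13 members have at least 50% of their longest transcript at least 95% identical to another gene (BLAST 2.17.0 against GENCODE 44).

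Genes were kept by filterByExpr over the 6 groups (16291), scaled by TMM and tested with edgeR 4.0.16 (R 4.3.3), by two-sided robust quasi-likelihood F tests, each time fitted apart on its 6 libraries. Changes of effect and DMSO over time used the libraries of both times. Calls are Benjamini-Hochberg adjusted p under 0.05 over all tested genes. SE is the log2 fold change divided by the root of F. Levels are TMM-scaled CPM; the floor of 1 CPM used unscaled totals. The scripts were tested on simulated data.

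The members and lists were chosen with earlier results of these data known. Named members are the 5 with the highest mean CPM; at 48 and 72 h the 10 called members per direction with the largest changes, and at 6 h 5, whose PRT3789 and DMSO libraries lie apart; 5 per direction for each change of effect; the 3 on either side of the floor; and those of the role list. LINC00339, LINC00526, LINC00667, LINC01002, LINC01123, LINC02542, LINC02901 and LINC02987 are named outside that rule, after their values were seen. Promoters and gene positions are RefSeq's (GRCh38.p14), matched by symbol for 70 and 100 members. Alternatives were DESeq2 1.42.0, limma-voom (limma 3.58.1), a joint model, other scalings and filters, the replicate block and each library left out.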

Additional observations from a re-analysis of the deposited data

Results flagged for a closer look

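For 10 members the effect of PRT3789 differed between 48 h and 6 h by an interaction test (edgeR's quasi-likelihood test, Benjamini-Hochberg adjustment over all tested genes). Values are the log2 fold change over DMSO at 48 h minus that at 6 h. It was higher at 48 h for LINC01232 (1.88, adjusted p = 0.0156), LINC00472 (1.71, adjusted p = 0.00412), LINC00638 (1.35, adjusted p = 0.023), LINC00205 (0.90, adjusted p = 0.00063) and LINC00886 (0.82, adjusted p = 0.0319). It was lower at 48 h for LINC02331 (-2.90, adjusted p = 0.000502), LINC01260 (-2.88, adjusted p = 9.57e-05), LINC02967 (-2.67, adjusted p = 0.000174), LINC01106 (-1.48, adjusted p = 0.0493) and LINC02475 (-1.15, adjusted p = 0.0105). These are the called members with the largest changes, 5 per direction. LINC02967 alone among them was also called for the treatment at 6 h. The calls of LINC00638, LINC00886 and LINC01106 were lost under 5, 8 and 12 of 20 alternatives, each time without a change of sign. LINC01106 averaged 1.82 ± 0.18 CPM in PRT3789 and 1.32 ± 0.25 in DMSO at 6 h, and 0.67 ± 0.37 in PRT3789 and 1.33 ± 0.069 in DMSO at 48 h (SD, n = 3 each). Of its longest transcript, 96.2% is like other genes. The closest by aligned length is LINC01123, another member that was lower at 48 h (-0.90, adjusted p = 0.0274). Reads could thus have been split between the pair.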

How the results depend on the processing

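Of 121 results on single named members, 70 were called; 52 of these kept the call under every alternative run, 18 lost it under at least 1, and none changed sign. The counts of members called for PRT3789 at 48 and 72 h stayed within 1.5 times under every alternative. At 6 h the joint model called 1 member higher and 4 lower and DESeq2 called 1 higher, beside 0 and 2. DESeq2 called 1 member with an upward change of effect from 48 to 72 h, beside 0. For DMSO at 72 h against 48 h, beside 4 higher and 16 lower, the joint model gave 1 higher and 2 lower and limma-voom 1 higher. Replicate numbers did not pair the libraries. Deviations from the group means correlated at -0.304 to 0.563 over the 9 pairs sharing a number and a time. With the replicate block, PRT3789 gave 22 higher and 30 lower at 48 h. The block has its own terms at each time, so its DMSO comparisons set fitted levels of replicate 1 against each other and not group means. DMSO at 48 h against 6 h gave 11 members higher there beside 22, and DMSO at 72 h against 48 h gave 0 higher and 0 lower. These 2 comparisons are therefore no check on the main DMSO counts. The causes of the other differences were not tested. With each library left out in turn, counts higher and lower were 0 to 0 and 0 to 1 at 6 h, 16 to 21 and 21 to 32 at 48 h, and 21 to 29 and 20 to 24 at 72 h. They were 3 to 6 and 5 to 9 for the change from 6 to 48 h, 0 to 5 and 0 to 1 for that from 48 to 72 h, 15 to 20 and 3 to 11 for DMSO at 48 h against 6 h, and 1 to 7 and 7 to 26 for DMSO at 72 h against 48 h. The 7 higher and the 26 lower both came without DMSO 48 h replicate 1, and the 11 lower without DMSO 6 h replicate 1. What depth limits was not measured; the members' median level was 3.02 CPM, and 46% of those at 1 to 5 CPM were called at 48 h, beside 50% of those at 5 CPM or more.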

Other observations

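Among the 100 members with a RefSeq position, only 2 pairs lie within 100 kb of each other. LINC00526 and LINC00667, 71 bp apart on chromosome 18, had log2 fold changes of 0.75 and 0.13 at 48 h, and 0.68 and 0.13 at 72 h. LINC00662 overlaps LINC02987 on chromosome 19, and their values at 48 h were -0.67 and 0.18. Both pairs were singled out by position.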
